A study of Mus musculus with 6 samples.

Results

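Annexins are proteins that bind acidic phospholipids in membranes when calcium is present, and several of them pair with small calcium-sensor proteins of the S100 family. The 10 genes described here are 6 annexin genes (Anxa1 to Anxa6) and 4 S100 genes (S100a4, S100a6, S100a10 and S100a11). They were chosen by name, with earlier results of these data known. Each matched a single one of the 52550 genes in the deposited table. RNA came from macrophages of the mouse strain C57BL/6, grown from bone marrow over 7 days with macrophage colony-stimulating factor at 25 ng/ml after red cells had been lysed. In 3 samples (C CM) the macrophages received medium that had been on normal chondrocytes, and in 3 samples (AC CM) medium that had been on apoptotic chondrocytes. No genotype, allele or age is given in the labels, nor how long the macrophages were exposed, how apoptosis was brought about, or whether the replicates stem from different mice or dishes. A p-value here therefore speaks only of the spread among the samples at hand, and that spread may be technical.

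In macrophages annexins are known as calcium-dependent membrane organisers that take part in phagocytosis, exocytosis and the resealing of torn membranes. Anxa1 is also secreted and acts on the formyl peptide receptor encoded by Fpr2, and Anxa5 binds the phosphatidylserine that dying cells expose. The product of S100a10 holds that of Anxa2 in a complex at the cell surface, where plasminogen can bind, and the product of S100a11 binds that of Anxa1.

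Library totals ran from 65630784 to 80105872 counts. Levels are given as CPM, the count scaled to a common library total after TMM scaling, which sets aside differences driven by a few genes. The 12 macrophage markers examined summed to 26769 to 28312 CPM after C CM and 25051 to 26104 CPM after AC CM; 1 rose (Mrc1, log2 fold change 0.54), 2 fell (Csf1r, -0.72, and Mertk, -0.40) and 9 did not pass, Adgre1 and Lyz2 among them. Markers of neutrophils and their precursors (12 genes) summed to between 907 and 1052 CPM in the C CM samples and between 198 and 213 CPM in the AC CM samples. Those of monocytes (7 genes) summed to 1621 to 1780 and 1140 to 1200 CPM. Dendritic cell markers (8 genes) summed to 52.1 to 65.4 and 13.7 to 15.1 CPM, and lymphocyte markers (8 genes) to 25.7 to 31.5 and 9.73 to 10.05 CPM. A single gene made up most of each of these 3 sums. These were Fn1 (means of 951 and 853 CPM, did not pass), Itgax (48.5 and 12.7 CPM) and Cd79b (20.5 and 8.65 CPM). Of the genes tested, 4 of 7 monocyte, 6 of 7 dendritic cell and 6 of 7 lymphocyte markers fell, and the rest did not pass. Fibroblast markers (7 genes) summed to 3978 to 5020 and 3194 to 3289 CPM. Chondrocyte markers (7 genes) summed to 37.0 to 45.8 and 44.2 to 48.9 CPM, most of it Col2a1, with Acan, Col9a1 and Hapln1 at 0 in all C CM samples. Hepatocyte markers (11 genes) summed to 47.3, 1.77 and 0.537 CPM in the C CM replicates (1, 2 and 3 in that order), against 50.1, 597 and 1426 CPM in the AC CM replicates. The part of these other cell types in the values of the annexin and S100 genes was not tested.

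AC CM was followed by small changes in both directions among the 10 genes. Anxa4, Anxa5 and S100a10 rose, Anxa6 and S100a11 fell, and Anxa1, Anxa2, Anxa3, S100a4 and S100a6 did not pass at an adjusted p under 0.05 (edgeR's quasi-likelihood test, Benjamini-Hochberg over all 17863 genes tested). All 10 passed the filter on low counts. The 5 called genes compare with 26.5% called over all genes tested, 13.3% higher and 13.3% lower. Because the 10 genes were chosen with earlier results of these data known, comparisons with all genes are descriptive only. The largest change was 1.36-fold, in S100a10, and the median log2 fold change (AC CM over C CM) of the 10 was 0.14, against -0.0046 over all genes tested. Regardless of direction, the median size was 0.28 on the log2 scale, against 0.30 over all genes tested. In 7 of the 10 every AC CM sample was above every C CM sample, which held for 22.6% of all genes tested, and in 2 every AC CM sample was below, which held for 22.1%, or 44.7% for either direction. Hepatocyte markers were highest in AC CM replicates 2 and 3. In a fit without both of them the calls among the 10 genes did not hold, and far fewer of all genes tested were called. That fit leaves a lone AC CM sample, so only its effect sizes are given. The log2 fold changes of the called genes were about as large there, at 0.42 (Anxa4), 0.26 (Anxa5), -0.37 (Anxa6), 0.43 (S100a10) and -0.31 (S100a11). All 10 log2 fold changes kept their sign in that fit of 4 libraries, in which the lone AC CM sample is assumed to vary like the C CM samples. In bulk RNA, fewer cells of a type and less RNA per cell cannot be told apart.

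**Figure D1:**
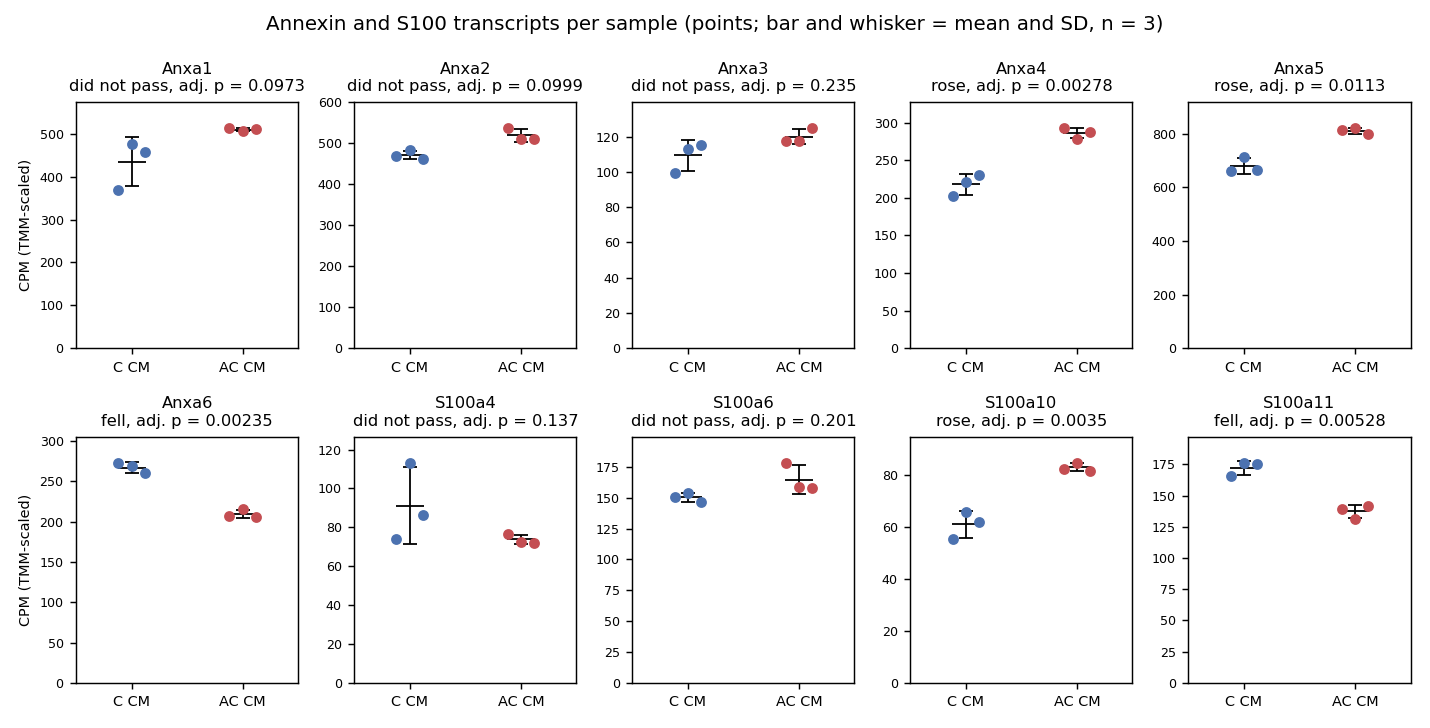
CPM of each of the 10 genes in each sample, with a panel and a vertical axis from 0 for every gene; points are samples, and bars with whiskers are means and SD (n = 3). The AC CM points lie above the C CM points for Anxa1, Anxa2, Anxa3, Anxa4, Anxa5, S100a6 and S100a10. They lie below them for Anxa6 and S100a11, while S100a4 overlaps.

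Stretches of 250 bases upstream of the transcription start are shown for the called genes that have a RefSeq promoter entry, Anxa4, Anxa5 and S100a11, and for Anxa2, the partner of S100a10 (RefSeq, GRCm38.p6, 5′ to 3′ on the strand of the gene). Capitals mark matches to 8 motifs searched on both strands: AP-1 (TGANTCA), CRE (TGACGTCA), ETS (CCGGAAGT), PU.1 (GAGGAAGT), the core-promoter box TATAAA, the CCAAT box, the GC box (GGGCGG) and the glucocorticoid response element (the half-site AGAACA followed, after 3 bases of any kind, by its reverse complement). No matches overlapped in the stretches printed.
Anxa4 (chr6:86793585-86793834, minus strand): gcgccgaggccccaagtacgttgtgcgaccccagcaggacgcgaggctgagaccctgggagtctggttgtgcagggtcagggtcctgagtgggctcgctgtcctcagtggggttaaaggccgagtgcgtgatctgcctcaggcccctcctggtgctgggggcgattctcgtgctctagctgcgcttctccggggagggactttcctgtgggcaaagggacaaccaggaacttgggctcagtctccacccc
Anxa5 (chr3:36475888-36476137, minus strand): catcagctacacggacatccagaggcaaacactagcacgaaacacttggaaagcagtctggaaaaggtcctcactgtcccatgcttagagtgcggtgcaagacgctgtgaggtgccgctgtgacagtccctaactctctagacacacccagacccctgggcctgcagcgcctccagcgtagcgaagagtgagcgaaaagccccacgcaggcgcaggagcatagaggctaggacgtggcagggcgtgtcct
S100a11 (chr3:93520246-93520495, plus strand): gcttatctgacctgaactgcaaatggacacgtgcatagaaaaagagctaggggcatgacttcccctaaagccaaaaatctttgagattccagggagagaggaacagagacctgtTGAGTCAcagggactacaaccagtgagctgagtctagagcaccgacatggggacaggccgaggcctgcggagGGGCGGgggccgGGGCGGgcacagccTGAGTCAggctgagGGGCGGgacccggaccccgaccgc
Anxa2 (chr9:69453433-69453682, plus strand): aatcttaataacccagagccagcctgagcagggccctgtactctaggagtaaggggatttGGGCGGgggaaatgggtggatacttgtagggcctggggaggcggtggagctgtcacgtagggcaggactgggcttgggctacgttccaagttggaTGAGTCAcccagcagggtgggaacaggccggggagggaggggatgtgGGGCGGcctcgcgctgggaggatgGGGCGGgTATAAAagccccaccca
The S100a11 stretch held the AP-1 letters at 2 places, whose first bases lie 136 and 38 bases before the start, and the GC box at 3. The Anxa2 stretch held the AP-1 letters once (95 bases before the start), TATAAA once (17 bases before) and the GC box at 3 places. Starts here are those of RefSeq, which can differ from the gene positions given below. By those positions Anxa2 begins at 69453620, so TATAAA and the GC boxes 48 and 24 bases before the RefSeq start lie within the gene. The stretch of Anxa1 (chr19:20390672-20390921) lies wholly within its gene. The Anxa4 and Anxa5 stretches held none of the 8 motifs, and neither did that of a further Anxa4 start (chr6:86775115-86775364). Of 32851 RefSeq promoter stretches of the same length, 6.75% held the AP-1 letters, 32.7% the GC box and 12.4% TATAAA. For the other motifs the shares were 33.8% (CCAAT), 2.88% (ETS), 2.44% (PU.1), 1.55% (CRE) and 0.00913% (glucocorticoid response element). Of the 10 genes 7 had an entry, 8 entries in all. Anxa3, Anxa6 and S100a10 had none. In the remaining entries, Anxa1 and S100a4 held TATAAA (32 and 31 bases before the start) and S100a6 held CCAAT on the reverse strand. A match describes letters in this window and is not evidence of binding.

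Among the 6 annexins chosen, Anxa4 (ENSMUSG00000029994.17, chromosome 6, 86736840 to 86793584, minus strand), which binds membranes and dampens their mobility, rose most in fold. It stood at 202, 221 and 230 CPM in C CM replicates 1, 2 and 3 and at 293, 279 and 288 CPM in AC CM replicates 1, 2 and 3. Every AC CM sample was above every C CM sample, with a gap wider than the range within either group. The log2 fold change was 0.39 (SE 0.07, 95% interval 0.24 to 0.55, edgeR adjusted p = 0.00278), or 1.31-fold. The 3′ end of Anxa4 shares 226 bases with Gm44036 on the opposite strand, which had 188 to 452 counts in the C CM samples and 556 to 648 in the AC CM samples. Anxa4 itself had 13276 to 15430 and 20635 to 22943 counts. Whether the counting used strand is not given in the sources used here, so reads of that stretch may not be separable.

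Anxa5 (ENSMUSG00000027712.13, chromosome 3, 36448923 to 36475894, minus strand), whose product is the phosphatidylserine binder used in the laboratory to stain apoptotic cells, stood at 662, 715 and 665 CPM after C CM and 815, 821 and 800 CPM after AC CM. The groups did not overlap. Its log2 fold change was 0.25 (SE 0.06, 95% interval 0.12 to 0.38, edgeR adjusted p = 0.0113), a rise of 1.19-fold. The call was lost without AC CM replicate 1 (log2 fold change 0.25, edgeR adjusted p = 0.0550) or AC CM replicate 2 (0.25, adjusted p = 0.0548). Over its 18 alternatives the adjusted p ran from 0.00148 to 0.290.

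Anxa6 (ENSMUSG00000018340.13, chromosome 11, 54979108 to 55033445, minus strand), an annexin with a duplicated core that is found on endosomes and the plasma membrane, went the other way. It stood at 273, 269 and 260 CPM after C CM and at 207, 215 and 206 CPM after AC CM, so that the groups stood apart. It fell by 0.35 on the log2 scale (SE 0.06, 95% interval -0.48 to -0.22, edgeR adjusted p = 0.00235), which is 1.28-fold lower. Anxa6 was the single annexin of those tested with a negative log2 fold change.

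Anxa1 (ENSMUSG00000024659.14, chromosome 19, 20373428 to 20390944, minus strand), known for its part in the resolution of inflammation, did not pass. Its levels were 370, 478 and 457 CPM after C CM and 514, 506 and 512 CPM after AC CM. The AC CM samples were close together and above all C CM samples, among which replicate 1 was low. The log2 fold change was 0.23 (SE 0.09, 95% interval 0.02 to 0.44, edgeR adjusted p = 0.0973). Without C CM replicate 1 it was smaller, at 0.13, and passed (edgeR adjusted p = 0.0283, with a range over its 18 alternatives of 0.0283 to 0.453).

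Anxa2 (ENSMUSG00000032231.14, chromosome 9, 69453620 to 69491795, plus strand) stood at 468, 483 and 463 CPM after C CM and 537, 511 and 510 CPM after AC CM. The groups did not overlap, but the log2 fold change of 0.14 (SE 0.06, 95% interval 0.01 to 0.27) had an edgeR adjusted p = 0.0999. It too passed without C CM replicate 1 (log2 fold change 0.14, edgeR adjusted p = 0.0368, range over the alternatives 0.0368 to 0.442). Anxa3 (ENSMUSG00000029484.12, chromosome 5, 96793339 to 96845966, plus strand), an annexin abundant in neutrophils, stood at 99.3, 113 and 115 CPM after C CM and 117, 117 and 125 CPM after AC CM. Its AC CM values lay just above the C CM values, with a log2 fold change of 0.13 (SE 0.08, 95% interval -0.04 to 0.30, edgeR adjusted p = 0.235) that was 0.07 without C CM replicate 1. For Anxa1 and Anxa2 the interval was above 0 before adjustment, and none of these 3 intervals shows that the levels were alike.

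Of the S100 genes, all 4 on chromosome 3, S100a10 changed most in fold. S100a10 (ENSMUSG00000041959.14, chromosome 3, 93555080 to 93564643, plus strand) encodes p11, an S100 protein that has lost the ability to bind calcium. It stood at 55.5, 65.9 and 61.9 CPM after C CM and at 82.5, 84.7 and 81.7 CPM after AC CM. Each AC CM sample exceeded each C CM sample by more than the C CM samples differed among themselves. The log2 fold change was 0.44 (SE 0.08, 95% interval 0.26 to 0.62, edgeR adjusted p = 0.0035), a rise of 1.36-fold.

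S100a11 (ENSMUSG00000027907.4, chromosome 3, 93520488 to 93526287, plus strand) lies 28792 bases from S100a10, with no tested gene between them, and moved in the opposite direction. It stood at 166, 176 and 175 CPM after C CM and at 139, 131 and 141 CPM after AC CM, with no overlap. It fell by 0.33 on the log2 scale (SE 0.06, 95% interval -0.47 to -0.18, edgeR adjusted p = 0.00528), which is 1.25-fold lower. Its value is uncertain to the extent that 5 copies elsewhere share at least 90% identity over at least 200 bases with its transcript. The most similar, Gm12854 (98.99% over 297 bases) and Gm7665 (98.65% over 297 bases), had 19 to 57 and 37 to 70 counts a sample, beside 9824 to 12044 counts for S100a11.

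S100a4 (ENSMUSG00000001020.8, chromosome 3, 90603771 to 90606045, plus strand), which binds non-muscle myosin and is also expressed by fibroblasts, was spread widely after C CM. It stood at 74.2, 113 and 86.4 CPM in C CM replicates 1, 2 and 3 and at 76.5, 72.6 and 72.1 CPM after AC CM. The groups overlapped, since C CM replicate 1 fell within the AC CM range, and the log2 fold change of -0.31 (SE 0.14, 95% interval -0.62 to 0.0052) did not pass (edgeR adjusted p = 0.137). It was -0.12 without C CM replicate 2 and -0.43 without C CM replicate 1, where it passed (edgeR adjusted p = 0.0334, range over the alternatives 0.0334 to 0.567). Gm42674 shares 2115 bases with S100a4 on the same strand, and its transcript is 100% identical over 302 bases. Gm42674 had 11 counts in AC CM replicate 2 and 0 in every other sample. How shared reads were counted is not given in the sources used here, so the level of S100a4 is uncertain to that extent. S100a6 (ENSMUSG00000001025.8, chromosome 3, 90612882 to 90624181, plus strand), which encodes calcyclin, stood at 150, 154 and 147 CPM after C CM and 178, 158 and 158 CPM after AC CM. The AC CM samples were all higher, replicate 1 most so, but the log2 fold change of 0.13 (SE 0.07, 95% interval -0.03 to 0.29) did not pass (edgeR adjusted p = 0.201). It was 0.07 without AC CM replicate 1 and 0.24 without AC CM replicates 2 and 3.

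In the authors' deposited table, 5 of the 10 genes had an adjusted p under 0.05, against 18.7% of the 27127 genes with a p there, and they were the 5 called here. All 10 log2 fold changes in the authors' deposited table had the sign found here, from -0.35 for Anxa6 to 0.45 for S100a10.

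Per kilobase of exon, the 10 genes were among the more abundant transcripts of these macrophages. Between 90.8% (Anxa3) and 99.5% (Anxa5) of the genes tested were lower than them after C CM. The order between genes depends on the exon length used, the union of a gene's GENCODE exons (511 bases for S100a11, 4645 for Anxa4). Anxa5 was highest, at 383 ± 16.7 CPM per kilobase after C CM and 457 ± 6.10 after AC CM (SD, n = 3). S100a11 was next, at 337 ± 11.3 and 269 ± 10.8 CPM per kilobase. After C CM the order went on with S100a4, Anxa1, Anxa2, S100a6, Anxa6, S100a10 and Anxa4, and Anxa3 was lowest at 30.0 ± 2.39 CPM per kilobase. The ranges of S100a4 and Anxa1, of Anxa1 and Anxa2, and of S100a10 and Anxa4 overlapped there. Within each C CM sample Anxa1 was still above Anxa2 and S100a10 above Anxa4, whereas S100a4 and Anxa1 changed order between samples. After AC CM S100a4 stood behind Anxa1 and Anxa2, the other 9 genes kept their order among themselves, and only the ranges of S100a4 and S100a6 overlapped among neighbours. Anxa6 (71.4 ± 1.75) and S100a10 (68.5 ± 1.26 CPM per kilobase) nearly met after AC CM, having stood at 91.2 ± 2.27 and 50.4 ± 4.30 after C CM. Summed over the 6 annexins, CPM came to 2074, 2278 and 2191 after C CM and to 2483, 2449 and 2440 after AC CM, without overlap. Anxa1, Anxa2 and Anxa5 made up most of that sum, and of the 6 genes 2 rose, 1 fell and 3 did not pass. Summed over the 4 S100 genes it came to 445, 509 and 470 and to 476, 447 and 453 CPM, with overlap.

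**Figure D2:**
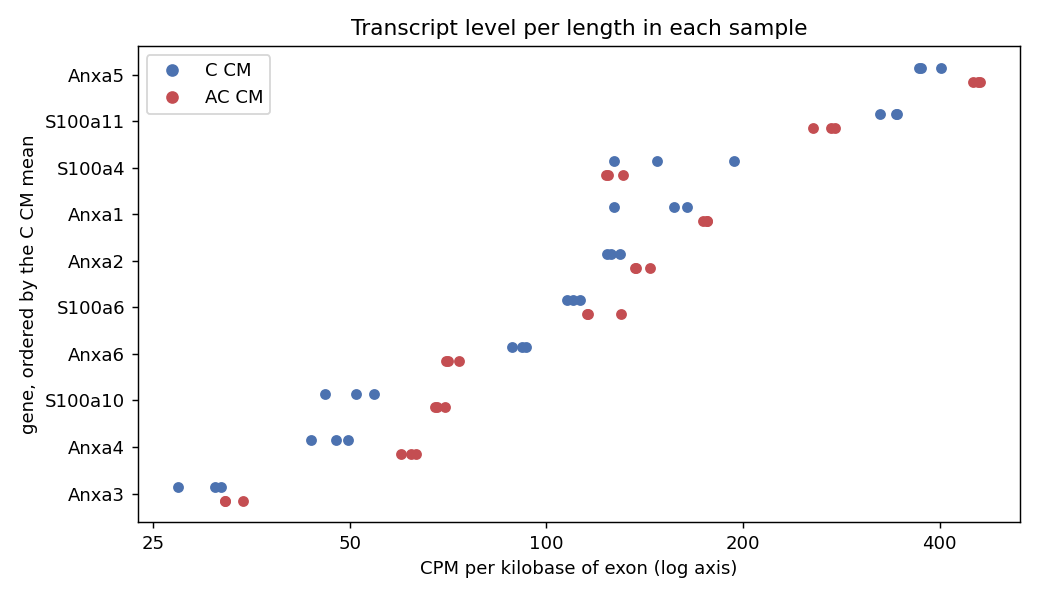
Level of each gene in each sample, in CPM per kilobase of exon on a log axis, ordered by the C CM mean; each point is a sample. Anxa5 and S100a11 lead in both groups, Anxa3 is lowest, and the points of S100a10 and Anxa6 come together after AC CM.

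Because partners were counted in the same library, the ratio of their counts does not depend on how libraries are scaled. With 3 samples against 3 the exact two-sided permutation test cannot go below p = 0.1, and each of the 4 ratios examined reached that limit (adjusted over the 4, p = 0.1). The count of S100a10 over that of Anxa2 was 0.119, 0.136 and 0.134 after C CM and 0.154, 0.166 and 0.160 after AC CM. The groups did not overlap, and the mean ratio was 1.23-fold higher after AC CM. The count of S100a11 over that of Anxa1 was 0.448, 0.369 and 0.383 after C CM and 0.272, 0.259 and 0.276 after AC CM. The shift was -0.57 on the log2 scale, again without overlap, and -0.48 without C CM replicate 1. S100a4 over Anxa2 was 0.159, 0.234 and 0.187 after C CM and 0.142, 0.142 and 0.141 after AC CM, a shift of -0.43 that was -0.28 without C CM replicate 2 and -0.56 without C CM replicate 1. S100a6 over Anxa6 was 0.550, 0.572 and 0.565 after C CM and 0.860, 0.736 and 0.766 after AC CM, a shift of 0.48. In this last pair the called fall of Anxa6 and the uncalled difference of S100a6 point apart.

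**Figure D3:**
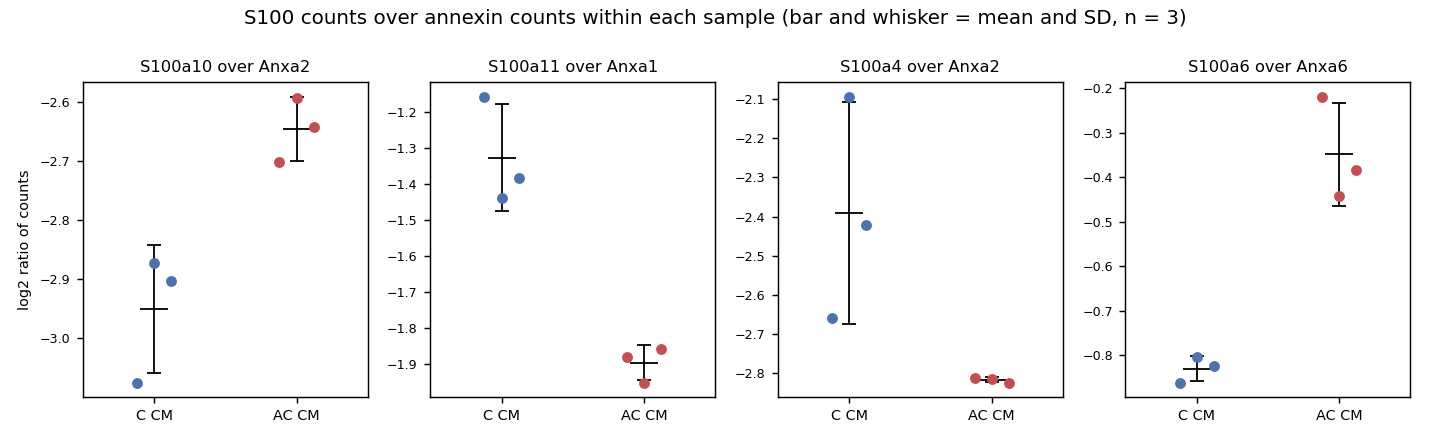
Log2 ratio of S100 counts over annexin counts in each sample, with a panel and its own axis range for each pair; points are samples, and bars with whiskers are means and SD (n = 3). S100a10 over Anxa2 and S100a6 over Anxa6 are higher in all AC CM samples, and S100a11 over Anxa1 and S100a4 over Anxa2 are lower.

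Further members of both families were examined in the same fit. Of 6 further annexin genes, 4 could be tested, 1 rose and 3 did not pass. Anxa8, an annexin best known from epithelia, rose from 0.692 ± 0.0617 to 2.44 ± 0.302 CPM (SD, n = 3), a log2 fold change of 1.82 (SE 0.24, edgeR adjusted p = 0.000764). It rested on 44 to 51 counts in the C CM samples and 159 to 216 in the AC CM samples. Anxa9 (0.50), Anxa11 (0.21) and Anxa7 (0.15) had positive log2 fold changes that did not pass, with edgeR adjusted p of 0.0915, 0.0956 and 0.197. Anxa10 and Anxa13 had no counts in any sample.

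Of 12 further S100 genes, 6 could be tested, 3 fell and 3 did not pass. S100a8 and S100a9, whose products form calprotectin, fell from 138 ± 27.3 to 23.2 ± 2.76 and from 267 ± 34.6 to 46.9 ± 4.46 CPM (SD, n = 3), with log2 fold changes of -2.57 (SE 0.15) and -2.51 (SE 0.11). Both are neutrophil markers, and 10 of the 12 neutrophil and precursor genes fell, S100a8 and S100a9 included. S100a1 was at -0.45 (SE 0.12, edgeR adjusted p = 0.022) and fell from 48.0 ± 6.08 to 35.1 ± 4.17 CPM. S100a16 (-0.42), S100a13 (-0.18) and S100b (0.48, with 0 to 38 counts a sample) did not pass. S100a8 lies 44796 bases beyond S100a6 on chromosome 3, so that a gene with a positive, uncalled difference and one that fell steeply are neighbours there among the S100 genes tested. S100a11 and S100a10 form a separate pair 2896306 bases away from S100a6.

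**Figure D4:**
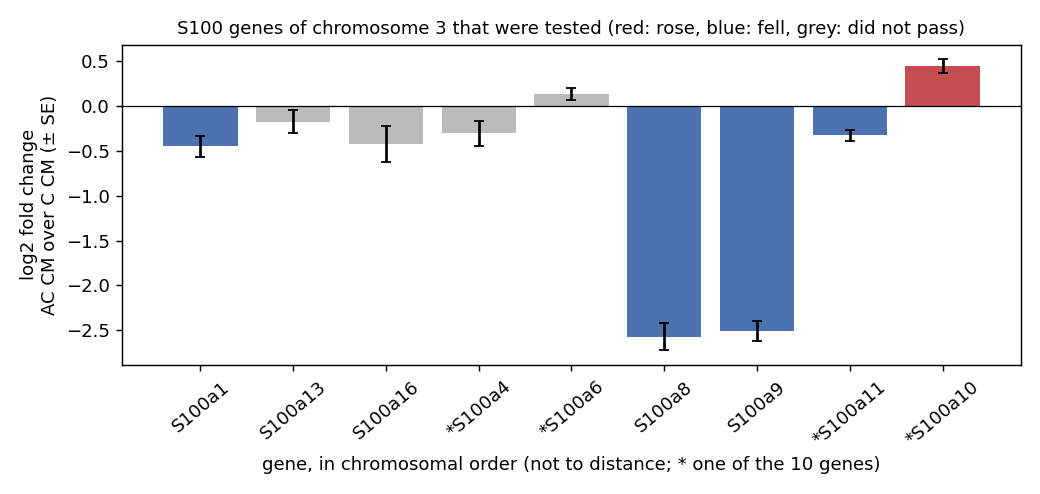
Log2 fold change (AC CM over C CM, whiskers SE) of the S100 genes of chromosome 3 that were tested, in chromosomal order without regard to distance. S100a8 and S100a9 stand near -2.5, the neighbours S100a11 and S100a10 have opposite signs, and S100a10 alone is red among these genes.

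**Figure D5:**
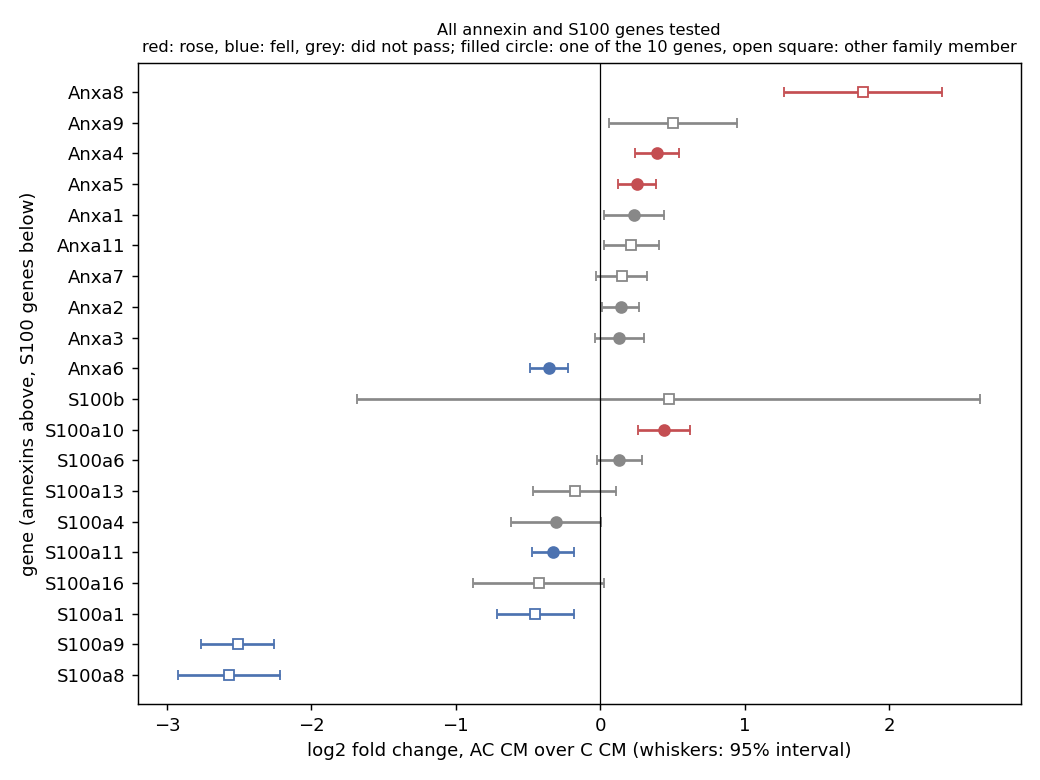
Log2 fold change with its 95% interval for every annexin gene (upper rows) and S100 gene (lower rows) tested; filled circles are the 10 genes described, open squares other family members, red rose, blue fell and grey did not pass. Anxa8 at 1.82 and S100a8 and S100a9 near -2.5 lie far outside the range of -0.35 to 0.44 of the 10 genes.

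Genes whose products act with these proteins were taken from lists chosen for their function, with earlier results of these data known. For receptors, 2 of 4 tested rose: Fpr2, the receptor for the product of Anxa1, from 11.1 ± 0.785 to 14.4 ± 0.766 CPM (log2 fold change 0.37, edgeR adjusted p = 0.0363), and Tlr4, a receptor for calprotectin, from 23.2 ± 5.74 to 34.1 ± 3.89 CPM (0.55, adjusted p = 0.0392). Fpr1 (-0.09) and Ager (-0.91, at under 1 CPM in every sample) did not pass, and Fpr3 had no counts. The median of the 4 was 0.14.

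Of 10 genes of plasminogen activation, the reaction that the Anxa2 and S100a10 complex is known to promote at the cell surface, 3 rose, 2 fell and 5 did not pass, with a median of 0.37. Without Plg and Hrg, a pair left out after their values were seen, the median of the other 8 was -0.07. The urokinase gene Plau rose by 2.61 (SE 0.09, edgeR adjusted p = 3.9e-07), its receptor gene Plaur (21.4 ± 2.55 CPM after C CM, 33.9 ± 2.75 after AC CM) by 0.67 (SE 0.11, adjusted p = 0.00249), and the inhibitor gene Serpinb2 by 1.25 (SE 0.20, adjusted p = 0.00202). The plasminogen receptor gene Plgrkt fell from 39.2 ± 3.30 to 27.7 ± 1.06 CPM (log2 fold change -0.50, SE 0.09, edgeR adjusted p = 0.00334). Plg itself had 21, 0 and 0 counts in C CM replicates 1, 2 and 3 and 48, 656 and 1294 in AC CM replicates 1, 2 and 3 and did not pass (edgeR adjusted p = 0.0764). Hrg had 24, 0 and 0 counts in the C CM samples and 12, 222 and 467 in the AC CM samples and did not pass (edgeR adjusted p = 0.156). The counts of both genes rank the AC CM samples in the order of their hepatocyte markers, whose part in these values was not tested.

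Of 8 tested scaffolds and clients of that complex, 2 rose, 1 fell and 5 did not pass, with a median of -0.14. Ahnak, the giant scaffold that the complex anchors at the membrane, rose by 0.30 (SE 0.09, edgeR adjusted p = 0.0365) from 944 ± 122 to 1162 ± 12.8 CPM, and its relative Ahnak2 by 0.50 (SE 0.07, adjusted p = 0.00117). The vesicle protein gene Vamp2 was at -0.31 and fell. Of 12 tested genes of calcium-dependent membrane repair, 1 rose, 2 fell and 9 did not pass, with a median of -0.04. The calpain gene Capn2 rose by 0.60 (SE 0.07) from 170 ± 11.7 to 259 ± 9.67 CPM, while Capn1 (-0.26) and the acid sphingomyelinase gene Smpd1 (-0.23) fell. The repair genes Dysf (-0.06) and Myof (-0.01), which are on both lists, did not pass.

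The genes whose pattern over the 6 samples was most like that of S100a10, the member with the largest change, were Cd200r1, Ikbkap and Arl8b, with Pearson r of log2(CPM + 0.5) of 0.999 each among 10332 genes ranked. Cd200r1 stood at 118 ± 12.0 CPM after C CM and 176 ± 3.60 CPM after AC CM (SD, n = 3). A further property of this ranking is that 119 genes had an r of at least 0.99. The 6 points share their libraries and fall into the 2 groups, so r describes the difference between groups as much as the order within them.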

How the data were processed

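The authors deposited 1 table with whole-number read counts per gene, not normalized, for 6 libraries. The submitters' processing notes name R 3.4.3, DESeq2 1.18.1, HISAT2 2.1.0 and fastp 0.17.1 without saying what each did. For the counter, genome build, annotation and strand setting, each is not given in the sources used here. The deposited signal columns equal counts divided by a constant per sample and were not tested. The log2 fold changes and p-values that the authors deposited are their own comparison and were only read. All 10 positions equal GENCODE M21 (GRCm38). The 37 mitochondrial genes had no counts. At low counts, more genes stood at 4 (696 to 814 per library) than at 3 (394 to 446). Totals may overstate independent fragments, which was not tested.

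Counts were filtered with filterByExpr, TMM-scaled and tested with edgeR 4.0.16 (robust quasi-likelihood, group only, all 6 samples) in R 4.3.3, with Benjamini-Hochberg adjustment over 17863 genes. The procedure was tested on simulated data. CPM use TMM-scaled library sizes. Exon length is the union of GENCODE exons. DESeq2 1.42.0, limma-voom (limma 3.58.1), other scalings and filters, a block for the replicate number, counts divided by 4, omission of the 20 genes with most counts, and samples left out were alternatives. Python 3.11.15 and scipy 1.17.1 served ratios and sequences. The minimum aligned length for near-identical copies, 200 bases, was set after seeing the matches. Named genes are the 10 members, called genes of the lists (up to 8 a list, by p) and the 3 most alike to the member with the largest change, with a mean of at least 5 CPM; further list genes were named after their values were seen. A called gene of the lists is not reported here. The members and lists were chosen with earlier results of these data known.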

Additional observations from a re-analysis of the deposited data

How the results depend on the processing

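The calls of Anxa4, Anxa6, S100a10 and S100a11 held in 17 of 18 alternatives each and that of Anxa5 in 15, and no log2 fold change of the 10 genes changed sign in any of the alternatives run. With AC CM replicates 2 and 3 left out, 1274 genes and 0 of the 10 passed in edgeR (4 of the 10 at an unadjusted p under 0.05), at log2 fold changes of 0.42 (Anxa4), 0.26 (Anxa5), -0.37 (Anxa6), 0.43 (S100a10) and -0.31 (S100a11). With 1 library left out at a time, 3158 to 5023 genes passed in edgeR, fewest without AC CM replicate 3. Of the 10 genes 4 to 8 passed, the 8 without C CM replicate 1. The log2 fold changes then ran from 0.13 to 0.30 (Anxa1), 0.11 to 0.16 (Anxa2), 0.07 to 0.17 (Anxa3), 0.24 to 0.29 (Anxa5), -0.43 to -0.12 (S100a4) and 0.07 to 0.16 (S100a6). Fewer samples were fitted in each of these, also without C CM replicate 1, where more genes passed than with all libraries. C CM replicate 1 stood furthest from its group. The chi-square per gene between its counts and those of C CM replicates 2 and 3 was 61.5 and 63.2. Between C CM replicates 2 and 3 it was 27.2, and between pairs of AC CM replicates 30.3 to 37.5. The cause of these shifts was not tested. With the replicate number as a block, 5 of the 10 and 4397 genes passed, and without it 5 and 4741; the deviations of same-numbered samples correlated at -0.12, -0.03 and -0.01, so the numbers were not taken as pairs. DESeq2 called 5516 genes and 5 of the 10, limma-voom 4708 and 5, and counts divided by 4 gave 4849 and 5. The ratios kept their sign without any single library, but their test cannot pass 0.05 at this size. Each of the 10 genes had at least 3642 counts in every sample, whereas Anxa8 and S100b rest on few counts. Whether the number of samples or the depth limits the precision was not tested.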

Other observations

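Anxa1 is a textbook glucocorticoid-induced gene. A list of 9 other genes held genes of that kind and also the receptor gene Nr3c1. By its role Nr3c1 is not of that kind, but it is included in the counts and the median that follow. Of the 9, 1 rose, 4 fell and 4 did not pass, with a median log2 fold change of -0.26 against -0.0046 over all genes tested. Tsc22d3, which encodes the leucine zipper protein GILZ, fell from 110 ± 6.16 to 69.3 ± 8.41 CPM (SD, n = 3; log2 fold change -0.67, edgeR adjusted p = 0.00117). Klf9 (-0.73), the scavenger receptor gene Cd163 (-0.72) and the kinase gene Sgk1 (-0.26) fell as well, and the phosphatase gene Dusp1 rose by 0.37. Zbtb16 (0.50), Nr3c1 (0.10), Fkbp5 (0.03) and Per1 (-0.35) did not pass, with edgeR adjusted p of 0.0568, 0.442, 0.864 and 0.135. Anxa1, at 0.23, did not pass.

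Anxa5 binds phosphatidylserine, and of 9 other genes for the binding or exposure of that lipid 1 rose, 3 fell and 5 did not pass, with a median of 0.15. Mfge8, which bridges apoptotic cells to macrophages, fell from 192 ± 20.6 to 84.7 ± 7.80 CPM (log2 fold change -1.18, edgeR adjusted p = 5.75e-05), and the receptor gene Timd4 fell from 3.86 ± 0.811 to 0.647 ± 0.163 CPM. Pros1 was at -0.37 and fell, and the flippase subunit gene Tmem30a rose by 0.26. Gas6, the most abundant of the 3 bridging genes Mfge8, Gas6 and Pros1, stood at 888 ± 90.1 and 985 ± 33.4 CPM and did not pass (log2 fold change 0.15, edgeR adjusted p = 0.194).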
